A study of Mus musculus with 8 samples.

Results

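HGF and EGF receptor growth signals were followed through 10 genes of mouse liver, chosen by name: the receptors Met, Egfr and Erbb3, the growth factor gene Hgf with its activation genes Hgfac, Plau and Plaur, and the EGF receptor ligands Tgfa, Hbegf and Areg. All 10 were found among the 47719 genes of the deposited table, and the tests covered the 8 with 1 FPKM or more in 2 or more libraries. FPKM is a gene's fragment number scaled by gene length and by library depth. The RNA came from livers of wild type C57BL/6 mice in 8 libraries: 4 taken 2 days after an extended hepatectomy, which removes most of the liver, 2 taken 14 days after it, and 2 from normal control mice 10 weeks old. The study concerns encapsulated human hepatocyte organoids in liver failure. Its design text names an EMC-treated control at day 2 and eLO treatment at both days, without spelling out either name, and no label ties a day 2 library to one of them. Surgery, time and treatment therefore cannot be told apart in the comparisons with control, nor can time and treatment between day 14 and day 2. Whether the libraries within a group are different animals is not stated, and every p-value below reflects the spread among these libraries alone, which may be technical.

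HGF is made in liver mainly by stellate and endothelial cells as an inactive precursor, is cut into its active form by serine proteases, and signals to hepatocytes through the receptor tyrosine kinase encoded by Met. EGF receptor ligands are made as membrane-bound precursors, are shed by metalloproteases, and act on hepatocytes through Egfr, often in a pair with Erbb3, which has little kinase activity of its own. Both receptor systems drive hepatocytes into the cell cycle after partial hepatectomy in rodents, and loss of both together blocks that response in mice.

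The upstream promoter sequences of 3 members are shown because their genes carry the changes described below: the receptor gene Egfr, lower at day 2, Plaur, higher at day 2, and Hgf, lower at day 14 than at day 2. Each is the 250 bases before the RefSeq start on GRCm38.p6, written 5′ to 3′ on the gene's own strand. Capitals mark the AP-1 site TGANTCA, the GC box GGGCGG and the TATA box TATAAA on either strand.
Egfr, chr11:16751953-16752202, plus strand: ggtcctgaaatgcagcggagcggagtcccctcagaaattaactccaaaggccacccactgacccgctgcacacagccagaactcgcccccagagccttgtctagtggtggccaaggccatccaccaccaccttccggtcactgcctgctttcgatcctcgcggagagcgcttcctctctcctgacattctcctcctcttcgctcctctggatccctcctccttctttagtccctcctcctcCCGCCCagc
Plaur, chr7:24462233-24462482, plus strand: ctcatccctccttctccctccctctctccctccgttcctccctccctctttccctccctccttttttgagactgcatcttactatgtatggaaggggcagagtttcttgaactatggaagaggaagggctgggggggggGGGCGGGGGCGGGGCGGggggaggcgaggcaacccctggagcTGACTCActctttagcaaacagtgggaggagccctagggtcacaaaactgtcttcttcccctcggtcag
Hgf, chr5:16553245-16553494, plus strand: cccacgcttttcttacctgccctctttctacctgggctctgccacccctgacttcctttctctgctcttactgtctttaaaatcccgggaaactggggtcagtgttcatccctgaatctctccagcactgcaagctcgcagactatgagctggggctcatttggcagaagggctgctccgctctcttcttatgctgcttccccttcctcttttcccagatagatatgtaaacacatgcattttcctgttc
The AP-1 site, bound by Fos and Jun proteins, occurred in 6.75% of 32851 promoters of the same length and matched 1 time each in Met and Plaur. The GC box, bound by Sp1, occurred in 32.7% of promoters and matched 3 times in Met, 1 time in Egfr, 3 times in Plaur, 2 times in Tgfa and 1 time in Areg. The Plaur matches lie side by side in 1 stretch, the last pair sharing a letter. The Met window, which runs into the first exon annotated by GENCODE, was counted and is not shown. Of the 7 members with a RefSeq promoter entry, Areg held a TATA box, which occurred in 12.4% of promoters. The 250 bases of Hgf held none of the 6 motifs searched. The others searched were the E box CACGTG (6.02% of promoters), the STAT site TTCNNNGAA (7.02%) and a loose pattern of the CArG box (67.1%). That pattern took any 6 letters between CC and GG, not A and T alone, so a match need not be a CArG box. Matches on both strands and overlaps between motifs were counted, and a match describes letters only.

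Total FPKM ran between 686332 and 1298005 per library, and 10796 to 11197 genes reached 1 FPKM. Absolute depth is unknown. A relative depth, read from the most common ratio of the lowest FPKM values between each library and control replicate 1, ran between 0.63 and 1.14. Hepatocyte markers (6 of 7 listed symbols found, led by Alb and Apoa1) summed to 34400 to 60100 FPKM at day 2, 51600 to 56600 FPKM at day 14 and 45800 to 48500 FPKM in controls. Alb and Apoa1 make up most of that sum, and of the 6 markers 2 were called lower at day 2 than in control, the metabolic enzyme genes Cyp2e1 and Cps1. The day 2 libraries differed among themselves: 8 markers of cycling cells summed to 3.48 and 1.48 FPKM in replicates 1 and 2, and to 495 and 703 FPKM in replicates 3 and 4, beside 9.49 and 9.79 FPKM at day 14 and 8.56 and 10.9 FPKM in controls. Day 2 replicate 1 has day 1 in its title and day 2 in its age label, which was followed, and the title of day 2 replicate 3 adds TVR, not explained there. Values also moved with transcript length: the eighth of genes with the shortest transcripts had a median log2 change of 0.55 at day 2 against control, and the eighth with the longest had -0.36. These medians were 0.51 and -0.28 at day 14 against control. All comparisons of the members were therefore repeated with the trend of each library with length and GC content removed.

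**Figure D1:**
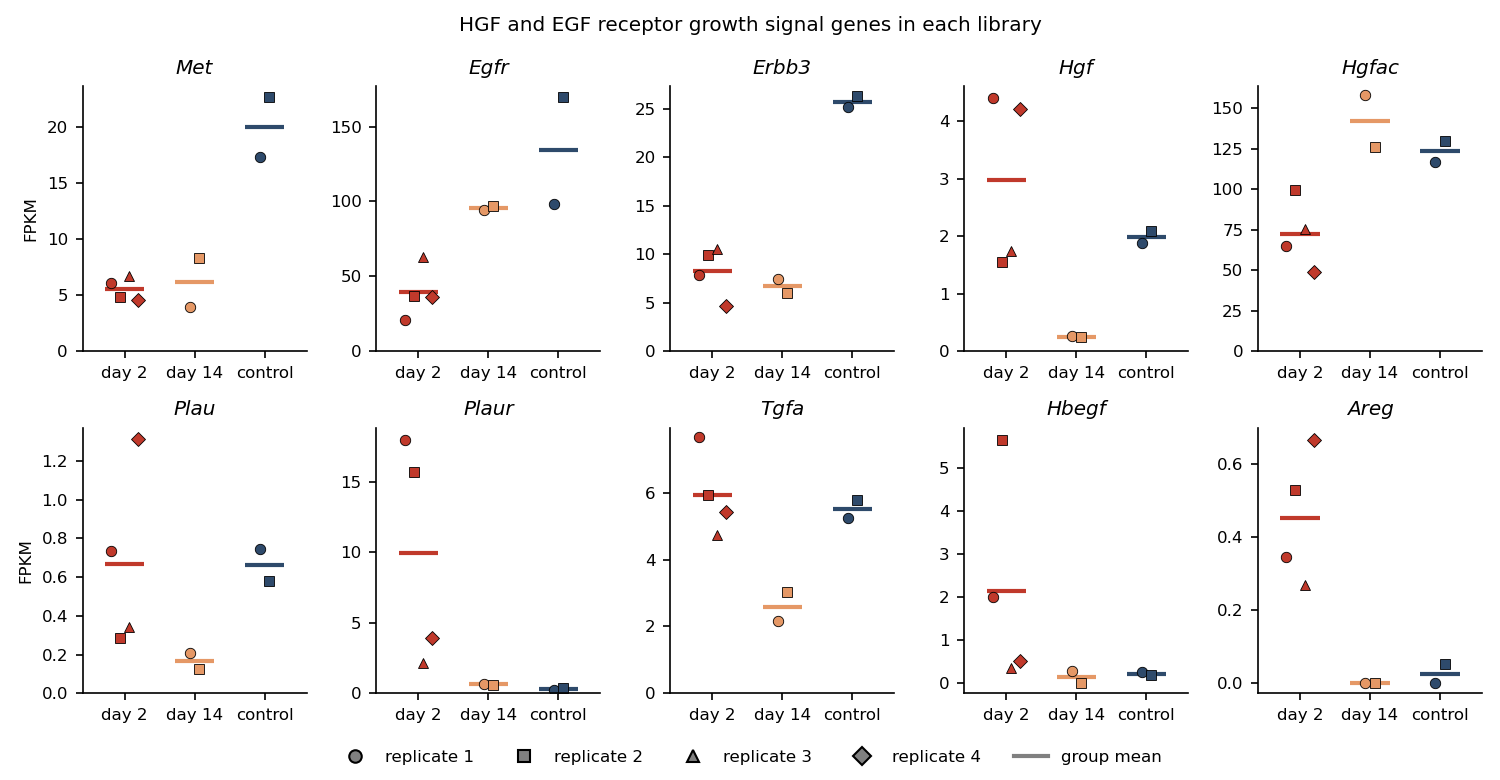
FPKM of each of the 10 genes (vertical axes, linear) in the 4 day 2, 2 day 14 and 2 control libraries; each point is 1 library, its shape the replicate number, and bars are group means. Met, Egfr and Erbb3 lie lower in all 4 day 2 libraries than in both controls, Plaur lies higher in all 4, and Hgf lies at 0.264 and 0.244 FPKM at day 14.

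All 3 receptor genes were lower at day 2 than in controls, and Met and Erbb3 were also lower at day 14. In the comparison of day 2 with control, 4 of the 8 tested members were called at an adjusted p under 0.05, 1 higher (Plaur) and 3 lower (Met, Egfr and Erbb3), while 21.2% of all 12340 genes tested were called. By direction, 9.72% of all genes were called higher and 11.5% lower. The comparison of day 14 with control called 2 of the 8, both lower (Met and Erbb3), beside 9.79% of all genes (5.21% higher and 4.58% lower). At day 14 against day 2 also 2 were called, both lower (Hgf and Tgfa), beside 16.1% of all genes (9.09% higher and 7.03% lower). The 2 comparisons with control share the control libraries, so their values are given side by side. The median log2 change of the tested members was -0.36, -0.65 and -0.58 in these 3 comparisons, beside 0.05, 0.00 and -0.03 over all genes tested. Plaur and Hbegf passed the filter through day 2 libraries alone, so the members tested are not all members and their counts favour a difference at day 2.

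Met, on chromosome 6 at 17463800 to 17573980 of GRCm38, encodes the HGF receptor. It stood at 6.10, 4.81, 6.70 and 4.54 FPKM in day 2 replicates 1 to 4, at 3.99 and 8.36 FPKM in day 14 replicates 1 and 2, and at 17.3 and 22.7 FPKM in control replicates 1 and 2. All 6 libraries after hepatectomy lay below both controls, and the day 2 and day 14 ranges overlapped. Its mean at day 2 was 0.277 times the control mean, with a log2 change of -1.69 ± 0.29 (SE; limma adjusted p = 0.00912, by Benjamini-Hochberg). Here and below a log2 change is taken after adding 1 FPKM, so the change of a gene at low FPKM is understated. At day 14 the log2 change against control was -1.61 ± 0.34 (limma adjusted p = 0.0329), and between day 14 and day 2 it was 0.08 ± 0.29 (limma adjusted p = 0.870). Met has a longest transcript of 6809 bases, and with the length and GC trend removed its log2 change was -1.26 ± 0.30 at day 2 (limma adjusted p = 0.03) and -1.24 ± 0.35 at day 14, where it was no longer called (limma adjusted p = 0.0738). The day 14 call was also lost at -1.15 without day 14 replicate 1, the lower of the pair of libraries (limma adjusted p = 0.179), and at an unmoved -1.61 without day 2 replicate 1 (0.0529) or without the filter on low values (0.0558).

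Erbb3, on chromosome 10 at 128567523 to 128589652, encodes a receptor that binds neuregulins and signals through its partners. Its FPKM was 7.84, 9.90, 10.6 and 4.72 in day 2 replicates 1 to 4, 7.51 and 6.05 at day 14, and 25.2 and 26.3 in the controls. The 2 controls lay close together and above every library after hepatectomy. The log2 change was -1.58 ± 0.30 at day 2 (limma adjusted p = 0.0116) and -1.79 ± 0.35 at day 14 (limma adjusted p = 0.0296) against control. With the length and GC trend removed both calls stood, at -1.41 ± 0.28 and -1.60 ± 0.33 (limma adjusted p = 0.0195 and 0.0440), for a longest transcript of 6016 bases. The day 14 call was lost without either day 14 library, at -1.92 without replicate 1 and -1.65 without replicate 2 (limma adjusted p = 0.164 and 0.0739).

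Egfr, on chromosome 11 at 16752203 to 16918158, encodes the EGF receptor and was the most abundant receptor of the members in every library. It measured 20.8, 37.0, 62.9 and 36.5 FPKM in day 2 replicates 1 to 4, 94.1 and 96.7 FPKM at day 14, and 98.4 and 170 FPKM in the controls. The day 2 libraries lay below all others, and the day 14 libraries lay just under the lower control. Its log2 change was -1.79 ± 0.41 at day 2 against control (limma adjusted p = 0.0214). At day 14 it was -0.43 ± 0.48 against control (limma adjusted p = 0.590), and 1.36 ± 0.41 against day 2, which missed the threshold (limma adjusted p = 0.0579) and passed it at 1.62 without day 2 replicate 3 (0.0243). Egfr has the longest transcript of the members, 10208 bases, and with the trend removed its day 2 change was -1.27 ± 0.41 and not called (limma adjusted p = 0.0743). Its day 14 change against control was then -0.03 ± 0.47.

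Markers of hepatocytes, which carry these receptors, are given beside the receptor values. Cyp2e1 stood at 157, 514, 860 and 347 FPKM in day 2 replicates 1 to 4, 926 and 3674 FPKM at day 14, and 2835 and 2756 FPKM in controls. Cps1 stood at 210, 113, 413 and 301 FPKM at day 2, 164 and 359 FPKM at day 14, and 726 and 827 FPKM in controls. Both were lower in all 4 day 2 libraries than in both controls. Apoa1 went the other way, at 17612, 32751, 13809 and 9748 FPKM at day 2, 21142 and 19644 FPKM at day 14, and 8654 and 7869 FPKM in controls. Hnf4a, Alb and Ttr lay above both controls in day 2 replicate 3 and below both in day 2 replicates 1, 2 and 4. The part of these markers in the receptor values was not tested.

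Without control replicate 1 or without control replicate 2, none of the receptor calls of either day held. The day 2 changes were then -1.87 and -1.5 for Met, -2.18 and -1.40 for Egfr and -1.61 and -1.55 for Erbb3, with limma adjusted p between 0.0827 and 0.205. With 1 control left, it is assumed to vary like the other groups, and the number of genes called over the whole table fell to 96 and 92, against 2620 with both.

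Egfr stood near its lower control at day 14 while Met and Erbb3 did not, so the receptors were compared within each library. The log2 ratio of Met to Egfr was -1.77, -2.95, -3.23 and -3.01 in day 2 replicates 1 to 4, -4.56 and -3.53 at day 14, and -2.51 and -2.90 in controls. That of Erbb3 to Egfr was -1.41, -1.90, -2.57 and -2.95 at day 2, -3.65 and -4.00 at day 14, and -1.97 and -2.69 in controls. Both ratios were lowest in the 2 day 14 libraries. A difference among the 3 groups was not shown for either ratio (exact permutation test over 420 assignments of the 8 libraries, p = 0.1 and 0.0762, both 0.15 when adjusted over the 3 ratios compared). The ratio of Met to Erbb3 gave p = 0.805 in the same exact permutation test. The smallest p this design allows is 0.00476, and the ratios were chosen after their values had been seen.

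**Figure D2:**
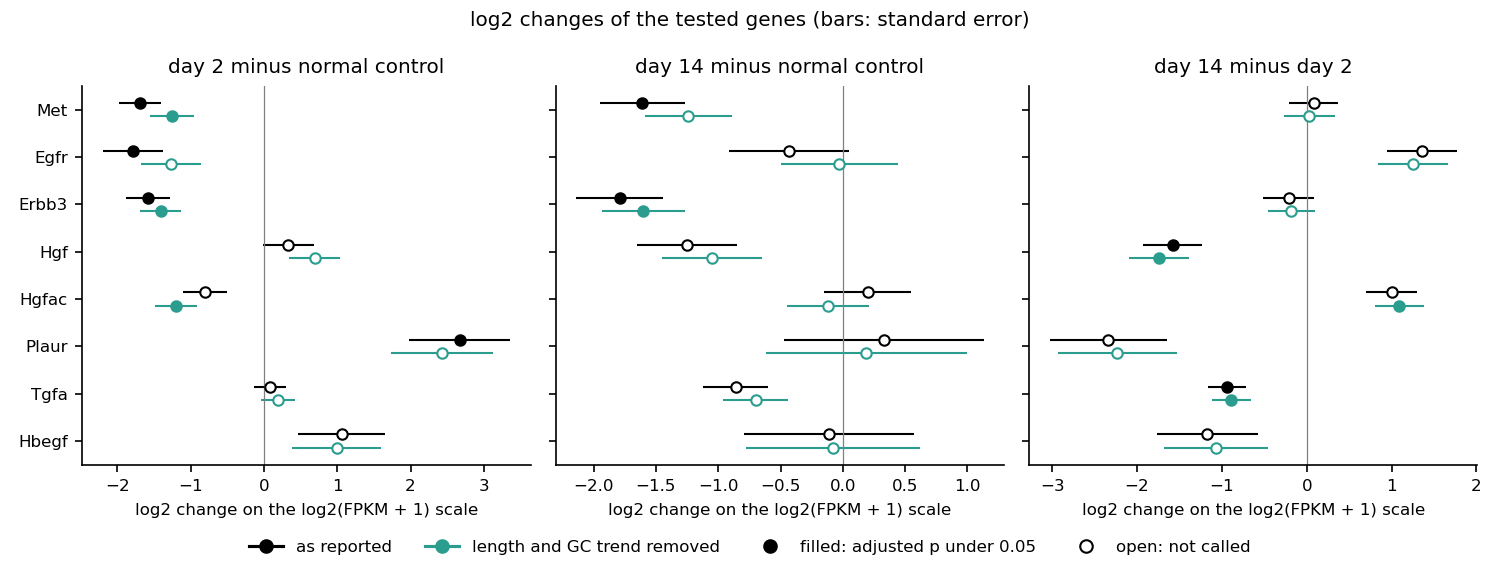
The log2 change of the 8 tested genes on the log2(FPKM + 1) scale (horizontal axes) in the 3 comparisons, as reported in black and with each library's length and GC trend removed in green; bars are standard errors and filled points have an adjusted p under 0.05. Met and Erbb3 are filled in both fits at day 2, while Egfr at -1.27 and Plaur at 2.43 are open once the trend is removed.

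Hgf, on chromosome 5 at 16553495 to 16620152, encodes the ligand of Met and was lowest at day 14. It stood at 4.40, 1.56, 1.75 and 4.20 FPKM in day 2 replicates 1 to 4, at 0.264 and 0.244 FPKM at day 14, and at 1.89 and 2.09 FPKM in the controls. The day 14 libraries lay below all others, while the day 2 libraries fell on both sides of the controls, replicates 1 and 4 above and replicates 2 and 3 below. The mean at day 14 was 0.0853 times that at day 2 and 0.128 times that of control. The log2 change of day 14 against day 2 was -1.58 ± 0.35 (limma adjusted p = 0.0224), and -2.97 with a pseudocount of 0.1 in place of 1. Against control, Hgf changed by -1.25 ± 0.40 at day 14 (limma adjusted p = 0.0824), called at -2.56 with the smaller pseudocount (0.0370), and by 0.33 ± 0.35 at day 2 (0.515). The fall against day 2 was not called without day 14 replicate 1 at -1.59 (limma adjusted p = 0.172), without day 14 replicate 2 at -1.57 (0.0858) or with no filter on low values (0.0534).

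Markers of the cells that make HGF were summed beside it. The 9 stellate cell markers, led by Ecm1 and Dcn, summed to 194, 161, 150 and 181 FPKM in day 2 replicates 1 to 4, 109 and 151 FPKM at day 14, and 146 and 130 FPKM in the controls. Ecm1 and Dcn made up most of each sum, and the single markers differed. At day 14 Lrat, Reln, Colec11, Dcn, Pdgfrb and Bmp5 lay below both controls, Ecm1 lay above both, and Des and Rgs5 lay on both sides. Of the 9, none was called at day 2 or day 14 against control and 1 was lower at day 14 than at day 2. The 7 sinusoidal endothelial markers summed to 25.3 to 81.6 FPKM at day 2, 42.0 and 62.1 FPKM at day 14, and 111 and 101 FPKM in the controls. Of these, 2 were lower at day 2 and 2 at day 14 than in control, and 1 was lower at day 14 than at day 2. In bulk tissue fewer cells of a type and less RNA per cell cannot be told apart, and the part of these markers in the Hgf values was not tested. The library kit, TruSeq RNA, is not stated to keep the strand. Within the Hgf locus, 2 annotated gene models lie on its own strand, listed at no more than 2.06 and 0.528 FPKM. Strand would not separate their reads from those of Hgf. Both peaked in day 2 replicate 1, where Hgf was at 4.40 FPKM, beside 4.20 FPKM in day 2 replicate 4. Whether Hgf shares reads with these models was not tested.

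Hgfac encodes HGF activator, a plasma protease made by hepatocytes that cuts the HGF precursor, and lies on chromosome 5 at 35041509 to 35048461. It read 64.9, 99.8, 75.5 and 49.0 FPKM in day 2 replicates 1 to 4, 158 and 126 FPKM at day 14, and 117 and 130 FPKM in the controls. All day 2 libraries lay below all others, and day 14 overlapped with control. The log2 change was -0.81 ± 0.30 at day 2 against control (limma adjusted p = 0.0888) and 1.00 ± 0.30 at day 14 against day 2 (0.0554), neither called. With the trend removed both were called, at -1.20 ± 0.29 (limma adjusted p = 0.0309) and 1.09 ± 0.29 (0.0390). Without day 2 replicate 2 both were called as well, at -0.98 (0.0343) and 1.17 (0.0237). Its change at day 14 against control was 0.20 ± 0.35 (limma adjusted p = 0.760), and -0.12 with the trend removed.

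Plau, urokinase, which activates plasminogen and can cut the HGF precursor, did not reach the filter. Its FPKM was 0.736, 0.286, 0.342 and 1.31 in day 2 replicates 1 to 4, 0.210 and 0.125 at day 14, and 0.744 and 0.583 in the controls. The day 14 libraries were the lowest, and day 2 spanned the controls. With no filter its log2 change was -0.48 ± 0.24 at day 14 against day 2 (limma adjusted p = 0.282), and -0.03 ± 0.24 at day 2 and -0.51 ± 0.28 at day 14 against control (limma adjusted p = 0.962 and 0.357).

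Plaur, the membrane receptor that holds urokinase at the cell surface, had the largest rise of the members. On chromosome 7 at 24462484 to 24475968, it measured 17.9, 15.7, 2.17 and 3.93 FPKM in day 2 replicates 1 to 4, 0.682 and 0.619 FPKM at day 14, and 0.248 and 0.386 FPKM in the controls. All 4 day 2 libraries were above all others, and replicates 1 and 2 were far above replicates 3 and 4. The mean at day 2 was 31.3 times that of control, with a log2 change of 2.67 ± 0.69 (limma adjusted p = 0.0308). At day 14 both libraries lay above both controls, with a log2 change of 0.33 ± 0.80 (limma adjusted p = 0.831), and the change against day 2 was -2.34 ± 0.69 (0.0534). The day 2 call did not hold with the trend removed (2.43 ± 0.70, limma adjusted p = 0.0551), with no filter (0.0746) or when the day 14 libraries were left out of the fit together (0.0534). It was also lost without day 2 replicate 1 at 2.28 (limma adjusted p = 0.0525), without either day 14 library (0.0515 and 0.0516), and without either control (0.188 and 0.175).

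Plaur is carried by neutrophils and monocytes as well as by liver cells, so markers of these cells are given beside it. The 8 neutrophil markers, led by S100a9 and S100a8, summed to 142, 326, 88.6 and 32.3 FPKM in day 2 replicates 1 to 4, 15.8 and 71.2 FPKM at day 14, and 4.23 and 7.84 FPKM in controls. Of the 5 neutrophil markers tested, 3 were higher at day 2 than in control. The 7 monocyte markers summed to 98.3, 123, 37.1 and 52.9 FPKM at day 2, 26.4 and 27.7 FPKM at day 14, and 45.2 and 36.4 FPKM in controls. These sums hold 8 entries, because Itgam is listed more than once. Of the 6 tested, 3 were higher at day 2 and 1 was lower at day 14 than in control. Lyz2 made up most of the control sums, at 40.9 and 31.3 FPKM. Both sums were higher in day 2 replicates 1 and 2 than in replicates 3 and 4, as Plaur was. Elsewhere the sums did not run in parallel: the monocyte sum of day 2 replicate 3 lay between the controls, and the neutrophil sum of day 14 replicate 2 was above that of day 2 replicate 4. Within the monocyte list, S100a4, S100a6, Ly6c2 and Chil3 lay above both controls in day 2 replicate 3. Lyz2 and Itgam lay above neither control there, and Ccr2 lay between them. Their part in the Plaur values was not tested. The markers of cycling cells ran the other way, low in replicates 1 and 2 and high in replicates 3 and 4.

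**Figure D3:**
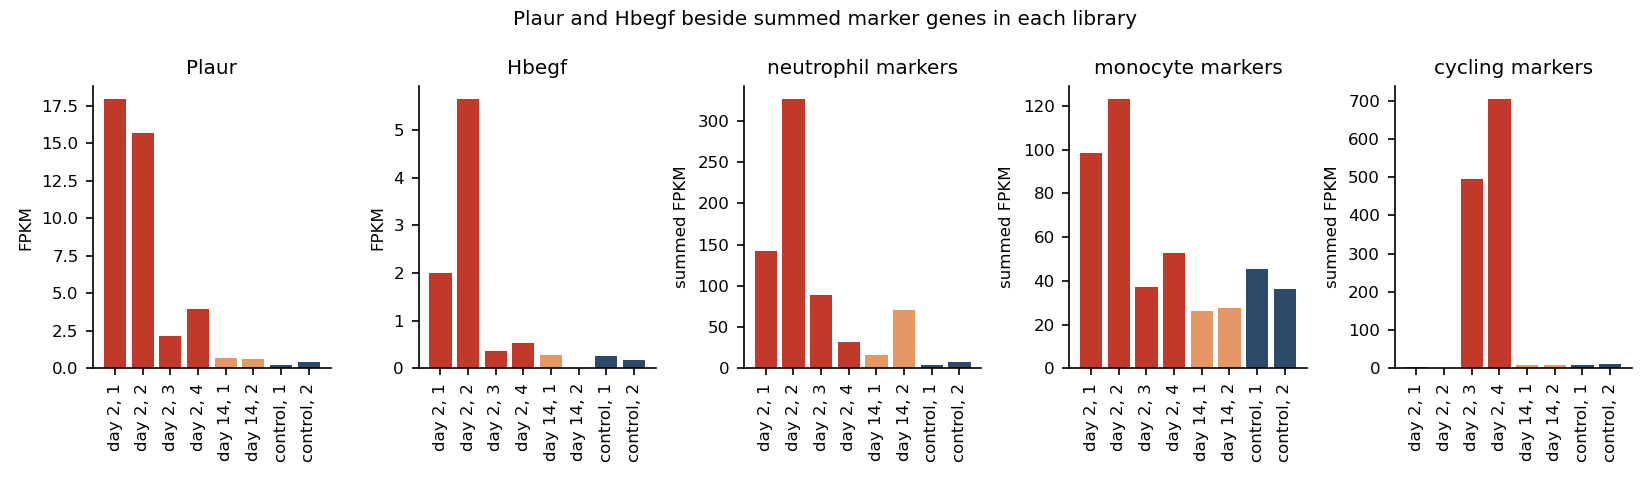
Plaur and Hbegf in FPKM, and the summed FPKM of the neutrophil, monocyte and cycling cell markers, 1 bar per library on linear axes from 0. Plaur, Hbegf and both sets of myeloid markers are highest in day 2 replicates 1 and 2, where the cycling markers sum to 3.48 and 1.48 FPKM.

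Tgfa, transforming growth factor alpha, is an EGF receptor ligand made by hepatocytes, on chromosome 6 at 86195223 to 86275719. Its level was 7.66, 5.93, 4.75 and 5.43 FPKM in day 2 replicates 1 to 4, 2.17 and 3.02 FPKM at day 14, and 5.24 and 5.77 FPKM in the controls. The day 14 libraries lay below all others, and day 2 spanned the controls. At day 14 the log2 change was -0.94 ± 0.22 against day 2 (limma adjusted p = 0.0289) and -0.86 ± 0.26 against control (0.0706). At day 2 it was 0.08 ± 0.22 against control (limma adjusted p = 0.822). The call against day 2 held with the trend removed (-0.89 ± 0.23, limma adjusted p = 0.0339), and was lost with no filter (0.0542), with only the compared groups (0.0679) and without any 1 of day 2 replicate 1 at -0.83, day 14 replicate 1 at -0.77, day 14 replicate 2 at -1.11 or either control at -0.94.

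Hbegf, heparin-binding EGF-like growth factor, a ligand shed by injured and inflamed tissue, lies on chromosome 18 at 36504927 to 36515805. It was at 2.00, 5.64, 0.363 and 0.524 FPKM in day 2 replicates 1 to 4, at 0.277 FPKM in day 14 replicate 1, listed at 0 in day 14 replicate 2, and at 0.261 and 0.182 FPKM in the controls. Every day 2 library was above all others, but replicates 3 and 4 only slightly. The log2 change at day 2 against control was 1.06 ± 0.59 (limma adjusted p = 0.224), and at day 14 against day 2 it was -1.17 ± 0.59 (0.199). At day 14 it was -0.11 ± 0.68 against control (limma adjusted p = 0.938).

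Areg, amphiregulin, a low-affinity EGF receptor ligand induced in damaged epithelium, did not reach the filter. It read 0.345, 0.529, 0.268 and 0.664 FPKM in day 2 replicates 1 to 4, was listed at 0 in both day 14 libraries, and was listed at 0 in control replicate 1 and at 0.0514 FPKM in control replicate 2. All 4 day 2 libraries were above all others, at levels that stayed below 1 FPKM. With no filter on low values, its log2 change was 0.49 ± 0.11 at day 2 against control (limma adjusted p = 0.0402) and -0.53 ± 0.11 at day 14 against day 2 (0.0399).

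Tgfa was the most abundant of the 7 ligands that bind Egfr (with Areg, Hbegf, Egf, Btc, Ereg and Epgn) in each of the 8 libraries. The 7 summed to 14.8, 15.0, 6.84 and 8.48 FPKM in day 2 replicates 1 to 4, 4.22 and 3.56 FPKM at day 14, and 7.25 and 7.68 FPKM in controls. Tgfa made up 51.9%, 39.6%, 69.4% and 64.0% of the sum at day 2, 51.4% and 85.0% at day 14, and 72.2% and 75.1% in controls. Hbegf made up 37.7% of it in day 2 replicate 2, near the Tgfa share, and 2.37% to 3.60% in controls. FPKM sums compare transcripts per length and say nothing of shed protein.

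In order of mean FPKM at day 2, Hgfac came first with 72.3 ± 21.3 (SD, n = 4), then Egfr with 39.3 ± 17.4, Plaur with 9.92 ± 8.02, Erbb3 with 8.26 ± 2.64, Tgfa with 5.94 ± 1.24 and Met with 5.54 ± 1.03. The ranges of Hgfac and Egfr overlapped, as did those of Plaur, Erbb3, Tgfa and Met. At day 14 the order was Hgfac (142 ± 22.6), Egfr (95.4 ± 1.79), Erbb3 (6.78 ± 1.03), Met (6.18 ± 3.09) and Tgfa (2.6 ± 0.602; SD, n = 2), and the ranges of Erbb3 and Met overlapped. In controls it was Egfr (134 ± 50.3), Hgfac (124 ± 9.13), Erbb3 (25.7 ± 0.795), Met (20.0 ± 3.83) and Tgfa (5.50 ± 0.375; SD, n = 2). The control ranges of Egfr and Hgfac overlapped, and those of Erbb3 and Met did not. Hgf, Hbegf, Plau and Areg came below these in all 3 groups by mean, and Plaur did so at day 14 and in controls.

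**Figure D4:**
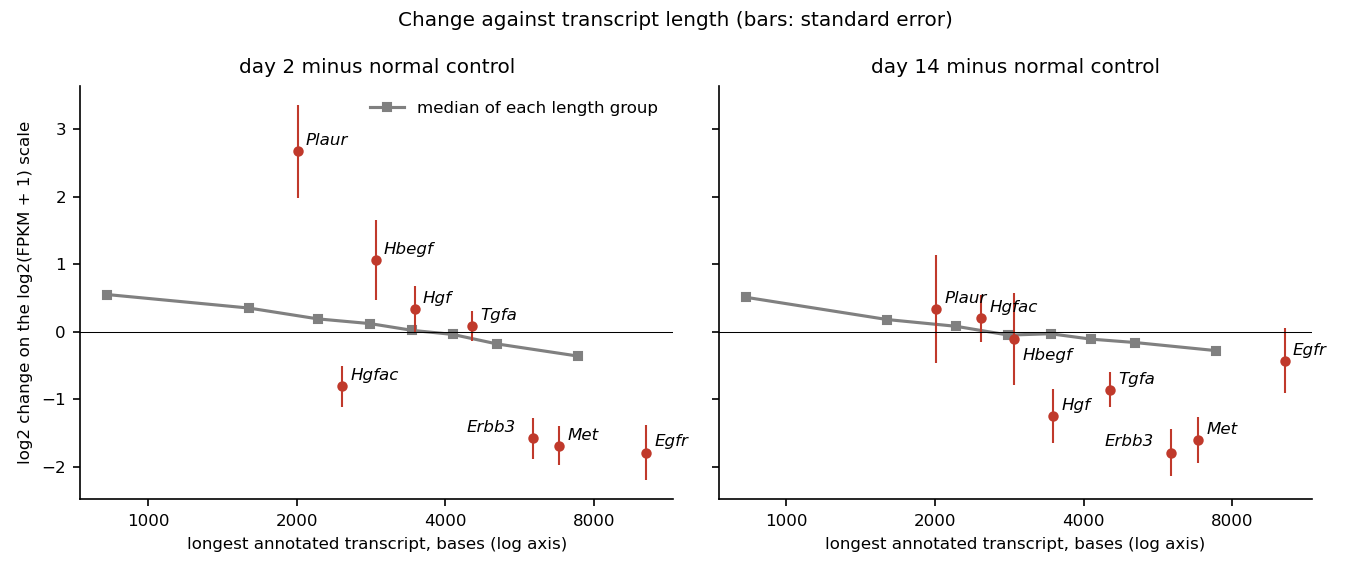
The log2 change of the 8 tested genes (red, with standard errors) against the length of the longest annotated transcript in bases (log axis), beside the median log2 change in 8 equal groups of all genes by transcript length (grey). At day 2 Met, Egfr and Erbb3, with 6016 bases or more, lie at -1.58 or lower, below the median of the longest group at -0.36.

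Across the 8 libraries, on the log2(FPKM + 1) scale, Met and Erbb3 correlated at r = 0.87, Hgf and Tgfa at 0.89, Plaur and Hbegf at 0.89, and Egfr and Plaur at -0.92. These are descriptions of 8 libraries in 3 groups, which share their group differences. Of all genes tested, those most like Met by this measure were Mtfr1 at r = 0.995, Pm20d2 at 0.994 and Trmt2b at 0.992. Those most like Egfr were Epb41l4b at 0.976, Lgr4 at 0.972 and Limd1 at 0.967. Those most like Hgf were Nfkbie at 0.978, Sept11 at 0.974 and the EGF receptor ligand gene Btc at 0.971.

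The wider pathway was read from a list of 58 other genes, of which 48 were tested. At day 2 against control 12 were higher and 2 lower, at day 14 against control 2 were higher and 1 lower, and at day 14 against day 2 there were 3 higher and 11 lower. The share called among all genes was 21.2%, 9.79% and 16.1% in these comparisons, and the class counts below stand beside the same shares. The median log2 change of the list was 0.19, -0.13 and -0.53, beside 0.05, 0.00 and -0.03 over all genes tested. Of the genes named below, Nrg1, Plat, Dusp5, Ier3, Ereg and Fosl1 passed the filter only because of their day 2 libraries, so their tests favour a difference at day 2. The further receptors Erbb2, Erbb4 and Mst1r were all below the filter, Erbb2 between 0.199 and 0.354 FPKM over the 8 libraries.

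Among 6 tested ligands of the wider list, 2 rose at day 2, both neuregulins. Nrg4, a ligand of Erbb4, stood at 12.2, 13.6, 32.5 and 17.2 FPKM in day 2 replicates 1 to 4, 7.20 and 9.13 FPKM at day 14, and 1.93 and 1.88 FPKM in controls. It was the one ligand of the list called against control at both times, by 2.67 ± 0.36 log2 units at day 2 (limma adjusted p = 0.00425) and 1.65 ± 0.42 at day 14 (0.0471). Nrg1, a ligand of Erbb3 and Erbb4, stood at 3.37, 1.95, 1.98 and 1.69 FPKM at day 2, 0.274 and 0.212 FPKM at day 14, and 0.394 and 0.353 FPKM in controls. It rose by 1.22 ± 0.24 at day 2 against control (limma adjusted p = 0.0132) and was lower at day 14 than at day 2 by -1.36 ± 0.24 (0.0124). Btc, betacellulin, was also lower at day 14 than at day 2, at -0.90 ± 0.22 (limma adjusted p = 0.0322).

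Of 8 tested proteases and inhibitors, 1 rose and 1 fell at day 2. Spint2, which encodes an inhibitor of HGF-activating proteases, stood at 144, 174, 149 and 161 FPKM in day 2 replicates 1 to 4, 133 and 181 FPKM at day 14, and 73.0 and 77.7 FPKM in controls. Every library after hepatectomy lay above both controls, with log2 changes of 1.05 ± 0.22 at day 2 (limma adjusted p = 0.0165) and 1.03 ± 0.26 at day 14 (0.0456). Klkb1, whose product plasma kallikrein can cut the HGF precursor, changed by -2.89 ± 0.47 at day 2 against control (limma adjusted p = 0.00712) and was higher at day 14 than at day 2, by 2.17 ± 0.47 (limma adjusted p = 0.0212). Plat, tissue plasminogen activator, was lower at day 14 than at day 2 at -1.53 ± 0.43 (limma adjusted p = 0.0472). With the trend removed that call was lost at -1.52 (limma adjusted p = 0.0555), and Plat was called higher at day 2 than in control at 1.69 (0.0445). Hpn, hepsin, a hepatocyte surface protease that can activate HGF, was at 194 to 307 FPKM at day 2, 374 and 317 FPKM at day 14, and 230 and 219 FPKM in controls, and was not called.

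Of 4 genes for ligand shedding 2 rose at day 2, Rhbdf1 by 1.83 ± 0.25 (limma adjusted p = 0.00411) and Rhbdf2 by 1.77 ± 0.45 (0.03), both of which encode carriers that bring the sheddase Adam17 to the cell surface. Adam17 itself changed by -0.25 ± 0.23 (limma adjusted p = 0.453). Rhbdf1 stood at 10.8 to 17.7 FPKM over the 4 day 2 libraries, 6.62 and 5.04 FPKM at day 14, and 2.75 and 2.84 FPKM in controls, and was lower at day 14 than at day 2 by -0.99 ± 0.25 (limma adjusted p = 0.0329). Rhbdf2, the most abundant of the class by its mean over all 8 libraries though not within controls, was at 1.29 ± 0.52 at day 14 against control and not called (limma adjusted p = 0.144). None of 9 adaptors was called against control by limma at either time, with 1 at day 2 and 3 at day 14 below an unadjusted p of 0.05. Grb2, the most abundant of them by its mean over all 8 libraries but not within day 2 or day 14, had log2 changes of -0.71 ± 0.35 at day 2 and -1.04 ± 0.41 at day 14. Ptpn11 and Shc1, which link receptors to Ras, were lower at day 14 than at day 2, at -1.18 ± 0.23 and -0.77 ± 0.22 (limma adjusted p = 0.0162 and 0.0493), and Shc1 lost its call with the trend removed, at -0.66 (0.064).

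Of 12 feedback inhibitors 3 rose and 1 fell at day 2. Socs3, an inhibitor of cytokine receptors, rose by 3.13 ± 0.57 (limma adjusted p = 0.0103), and Dusp5 and Dusp6, phosphatases of the ERK kinases, by 2.11 ± 0.56 and 1.06 ± 0.21 (0.0331 and 0.0132). With the trend removed Dusp5 was at 1.77 and not called (limma adjusted p = 0.0665). Dusp6 was even across the day 2 libraries, at 21.6, 22.4, 20.9 and 25.2 FPKM, against 8.58 and 12.3 FPKM in controls, while Dusp5 was at 6.18, 10.8, 1.44 and 2.63 FPKM, against 0.161 and 0.268 FPKM in controls. Both were lower at day 14 than at day 2, by -2.25 ± 0.56 for Dusp5 and -0.94 ± 0.21 for Dusp6 (limma adjusted p = 0.0330 and 0.0231). Lrig1, a membrane protein that lowers EGF receptor family members, also fell, at 3.12, 3.96, 4.78 and 3.53 FPKM at day 2 and 3.87 and 4.62 FPKM at day 14, against 8.51 and 10.9 FPKM in controls. Its log2 changes were -1.15 ± 0.22 at day 2 (limma adjusted p = 0.0111) and -1.03 ± 0.25 at day 14 (0.0426) against control, and the call at day 14 was lost with the trend removed. Lrig3 was higher at day 14 than at day 2, by 1.00 ± 0.21 (limma adjusted p = 0.0207). Errfi1, an inhibitor of the EGF receptor kinase and the most abundant of the class, was at 244 to 571 FPKM at day 2, 338.4 and 391.5 FPKM at day 14, and 572 and 634 FPKM in controls, and was not called at -0.72 ± 0.34 at day 2 (limma adjusted p = 0.161).

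Of 9 genes known as targets of these signals 4 rose at day 2 against control and none was called at day 14 against control by limma, where 4 had an unadjusted p under 0.05. Odc1, the first enzyme of polyamine synthesis, stood at 96.4, 81.0, 59.7 and 54.3 FPKM in day 2 replicates 1 to 4, 10.8 and 13.7 FPKM at day 14, and 25.2 and 24.3 FPKM in controls. It rose by 1.48 ± 0.28 at day 2 (limma adjusted p = 0.0109), and was lower at day 14 than at day 2 by -2.45 ± 0.28 (0.00380). Ier3 and Egr1, early response genes, rose by 3.84 ± 0.89 and 3.49 ± 0.85 (limma adjusted p = 0.0214 and 0.0256), and Myc, a transcription factor gene, by 1.29 ± 0.35 (limma adjusted p = 0.0359). Ier3 was uneven, at 48.1, 90.4, 8.34 and 8.80 FPKM in day 2 replicates 1 to 4, against 0.627 and 0.922 FPKM in controls. Egr1 was at 11.8, 75.1, 56.2 and 35.0 FPKM in the same day 2 libraries, against 2.38 and 2.30 FPKM in controls. With the trend removed Myc was at 1.07 and not called (limma adjusted p = 0.0759). Etv5, an ETS factor gene, was lower at day 14 than at day 2 by -1.34 ± 0.21 (limma adjusted p = 0.00807), Ier3 by -3.57 ± 0.89 (0.0330), and Phlda1 was higher by 1.48 ± 0.37 (0.0331). With the trend removed, the wider list again had 12 higher and 2 lower at day 2, but not the same genes: Dusp5 and Myc lost their calls, and Plat and Spred1 gained one, Spred1, an inhibitor of Ras signalling, at 0.94 (limma adjusted p = 0.0254). Spred1 was then also called lower at day 14 than at day 2, at -0.88 (limma adjusted p = 0.0287). Without control replicate 1 or without control replicate 2 it had 0 called at day 2 and 0 at day 14 against control.

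**Figure D5:**
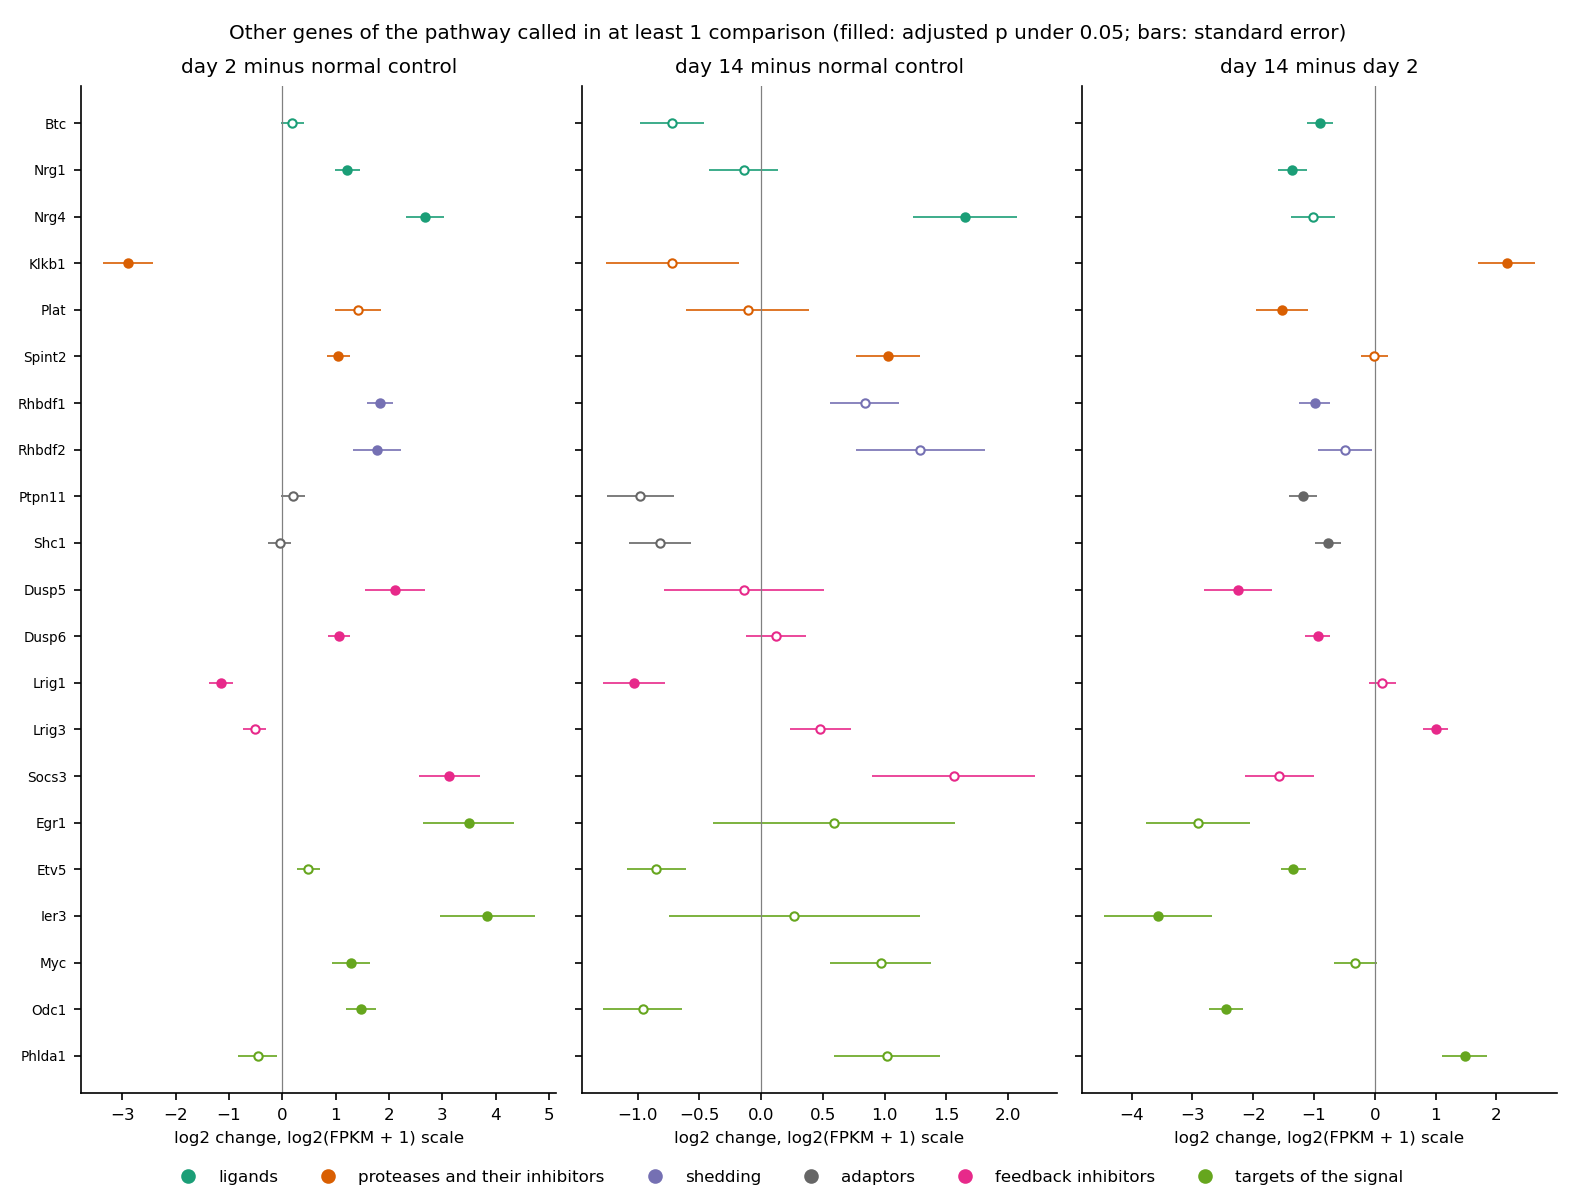
The log2 change, on the log2(FPKM + 1) scale, of those genes of the wider list that were called in at least 1 comparison (horizontal axes) in the 3 comparisons, coloured by role, with standard errors; filled points have an adjusted p under 0.05. At day 2 against control 12 points are filled on the right and 2, Klkb1 and Lrig1, on the left, and most of those filled at day 14 against day 2 lie on the left.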

How the data were processed

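The submitters deposited 1 table of gene-level FPKM, with a column for each of the 8 libraries, per the file headers. Their processing notes name Cufflinks 2.2.1, HISAT2 2.10, DESeq2 and HTSeq, and both mm9 and GRCm38, without roles; the sources used here do not state which steps, annotation or scaling made the FPKM values. Without counts, no interval from depth was computed.

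Libraries were grouped by label. The deposited FPKM values were put on the scale log2(FPKM + 1), and the 12340 genes at 1 FPKM or more in 2 or more libraries were tested. Means of the 3 groups were fitted by limma 3.58.1 (R 4.3.3), the prior variance following mean level, on 5 residual plus 3.23 prior degrees of freedom. P-values were Benjamini-Hochberg adjusted over all genes within each comparison, and genes under 0.05 were called. The method was run on simulated data with added changes and independent normal noise of the fitted spread. Those data held no length trend and no split within day 2, so that run does not cover either. Lengths, GC content (99.7% of genes tested) and coordinates came from GENCODE M21 on GRCm38, promoters from RefSeq on GRCm38.p6. In an alternative, each library's trend with length and GC content was removed by splines. The others were a pseudocount of 0.1, no filter, a filter at 5 FPKM, median-ratio scaling, fitting the 2 compared groups alone, no mean-variance trend, and leaving out each library.

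Members, lists and alternatives were chosen with earlier results of these data known. Every member is named. In the wider list, at least the 2 called genes of largest change in each class are named, or its most abundant gene where none was called. The 3 genes most correlated with each of Met, Egfr and Hgf are given; Areg did not pass the filter. Values of 1 gene of the wider list are not reported here. Plots used matplotlib 3.10.9.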

Additional observations from a re-analysis of the deposited data

Results flagged for a closer look

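The changes from control at day 2 and at day 14 differed for 2 of the 8 tested members, by the test of day 14 against day 2 itself. The same test called 16.1% of all genes tested. Hgf differed by -1.58 ± 0.35 log2 units (limma adjusted p = 0.0224), lower in both day 14 libraries than in all 4 day 2 libraries. Tgfa differed by -0.94 ± 0.22 log2 units (limma adjusted p = 0.0289), again lower in both day 14 libraries than in all 4 day 2 libraries. Neither call held with no filter on low values (limma adjusted p = 0.0534 for Hgf and 0.0542 for Tgfa). By the design text, time and treatment cannot be told apart in these differences. No library of the day 2 group stood apart from the other 3 for any member by Dixon's test at the 95% level. With 4 libraries that test cannot flag a split of 2 against 2, such as that of Plaur. The other groups, with 2 libraries, were not examined this way.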

How the results depend on the processing

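Over all genes, 2620 were called at day 2 against control (1705 with the length and GC trend removed), 1208 at day 14 against control (691 with no filter, 2664 with only the compared groups, 494 with the trend removed) and 1990 at day 14 against day 2 (982 with only the compared groups). Leaving out 1 library gave 92 to 2971, 0 to 2097 and 17 to 2472 in these comparisons, lowest without control replicate 2, without day 14 replicate 1 and without day 14 replicate 1; a library left alone in its group is assumed to vary like the others. Of the tested members, 4 were called at day 2 against control (0 to 5 with 1 library left out). Against control at day 14, 2 were called, with 1 under no filter, 4 with only the compared groups, 1 with the trend removed, and 0 to 3 with 1 library left out. At day 14 against day 2 also 2 were called, with 1 under a filter at 5 FPKM and with only the compared groups. Leaving out 1 day 2 library gave 1 to 4, and calls lost without other libraries are given above. With no filter neither Hgf nor Tgfa was called (limma adjusted p = 0.0534 and 0.0542). Areg, which the main tests did not cover, was then called (limma adjusted p = 0.0399). In the wider list, 14 were called at day 2 against control (0 to 19 with 1 library left out). Against control at day 14, 3 were called, with 1 under no filter, 5 under the filter at 5 FPKM and under median-ratio scaling, 14 with only the compared groups, and 0 to 8 with 1 library left out. At day 14 against day 2, 14 were called, with 8 under no filter and with only the compared groups, and 0 to 14 with 1 library left out. Direction turned for 4 member values, none of them called: Hgfac at day 14 against control was -0.12 with the trend removed, and with 1 library left out Tgfa at day 2 against control ran from -0.03 to 0.16, Hbegf at day 14 against control from -0.29 to 0.06, and Met at day 14 against day 2 from -0.37 to 0.53. Of the member values under all alternatives, 298 kept direction and side of the threshold, 35 lost and 11 gained a call. The causes of these shifts were not tested. Groups of 2 libraries and an unknown depth limit all comparisons, most of all for genes near 1 FPKM. No paired analysis was possible because the groups compared share fewer than 2 numbers in their labels.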

Other observations

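Epiregulin, Ereg, an EGF receptor ligand, and the transcription factor gene Fosl1 were higher in day 2 replicates 1 and 2 than in replicates 3 and 4, as Plaur was. Ereg was at 1.45, 1.14, 0.0740 and 0.163 FPKM in day 2 replicates 1 to 4, 0.0681 and 0.0167 FPKM at day 14, and 0.253 and 0.178 FPKM in controls. Fosl1 was at 4.77, 3.12, 0.108 and 0.644 FPKM at day 2, 0.0594 and 0.13 FPKM at day 14, and 0.0356 and 0.0698 FPKM in controls. Both passed the filter through day 2 replicates 1 and 2 alone. Neither Ereg nor Fosl1 was called in any of the 3 comparisons, and both were picked after their values had been seen.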
